A study of Mus musculus with 6 samples.

Results

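Angiopoietins and vascular endothelial growth factor (VEGF) were examined in the first lumbar segment (L1) of the mouse spinal cord, together with their receptors and with Lrg1, a secreted glycoprotein that acts on vessels. The 9 genes were Angpt1, Angpt2, Tek, Tie1, Vegfa, Flt1, Kdr, Eng and Lrg1, chosen by name, and the set was put together because earlier results on these arrays had shown Angpt2 and Lrg1 to be high in 1 group, SC. The platform annotation assigned 16 of the 45037 probe sets to them, out of 18193 named genes in all. A probe set is a group of short probes that together read 1 transcript or a few transcripts of a gene.

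Blood vessels respond to these genes through paired ligands and receptors. Angpt1 holds endothelial cells quiet by activating the receptor tyrosine kinase Tek, also called Tie2, and Angpt2, stored and released by endothelial cells, can block or weakly replace Angpt1 at that receptor. VEGF-A drives endothelial growth and leakiness through Kdr, while Flt1 binds it tightly and largely acts as a trap, and Eng and Lrg1 belong to the TGF-beta arm of vessel signalling.

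The mice were SCID males, which lack functional B and T cells. The labels give an age of 9 weeks when the mice entered the study and of 15 weeks when the cord was taken, with 6 weeks between injection and sampling. The N-inv mice had received Capan-1 cells, an established human pancreatic cancer line, in the left sciatic nerve. The SC group carried the same cells under the skin, and the PBS group was the control without tumour cells. Each group had 2 arrays, 6 in all, and the labels do not say in words that these came from separate animals, so p-values reflect how far these arrays spread, and that spread may be technical. RNA came from whole cord, in which fewer vessel cells and less RNA per vessel cell cannot be told apart. The tumour cells were human and the arrays mouse, and any reading of human transcripts by these probes was not tested.

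Of 12 spinal cord markers 11 lay above the filter on dim probe sets, among them lumbar Hox genes and neuronal and myelin genes. Of the 23 endothelial markers on the array 22 did, with Pecam1 below the filter. Among all named genes 12626 of 18193 lay above it, so these counts are only a weak check of the tissue. The SC arrays stood apart from the other 4. Their median correlations to the other arrays were 0.970 and 0.969 against 0.980 for each of the others. Their Actb 3' to 5' ratios, a sign of RNA quality, were 3.81 and 4.70 against 3.05 to 3.57. The Gapdh ratios set them apart less, at 3.52 and 3.380 against 2.82 to 3.378. Xist, an RNA of female cells, reached 13065 on SC replicate 2, whereas the other 5 gave 138.6 to 228.5, although every mouse is labelled male. That array also had the highest Eif2s3y, a gene of the Y chromosome, at 3152, so it held both signals. SC replicate 1 had the lowest Eif2s3y, at 1344, with all other arrays between 2369 and 3152. Where leaving out SC replicate 2 turned an SC difference described below for a member or a list, or moved it strongly, the value without it is given beside it.

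Of the 16 probe sets, 12 had a mean intensity above the cutoff of 155.5, the 40th percentile of all probe sets, and could be tested; they covered 8 of the 9 genes. The other 4 probe sets stayed dim: the single probe set of Tie1, and second probe sets of Angpt1, Angpt2 and Vegfa. Values below are intensities scaled to a common median, and differences are log2 differences after adding 25.6 to each intensity, which understates changes of dim genes. In limma, with Benjamini-Hochberg adjustment over all 27022 probe sets, 0 of the 12 member probe sets passed an adjusted p of 0.05 in any of the 3 comparisons, as did 0 of 27022 overall (percent called 0 in each). At an unadjusted p under 0.05 the members numbered 1 in N-inv against PBS, 2 in SC against PBS and 1 in N-inv against SC, where 4.03%, 7.88% and 8.9% of all probe sets did so. Lrg1 and Angpt2, the genes for which the set was chosen, made up all of these, and nothing is read from these counts.

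**Figure D1:**
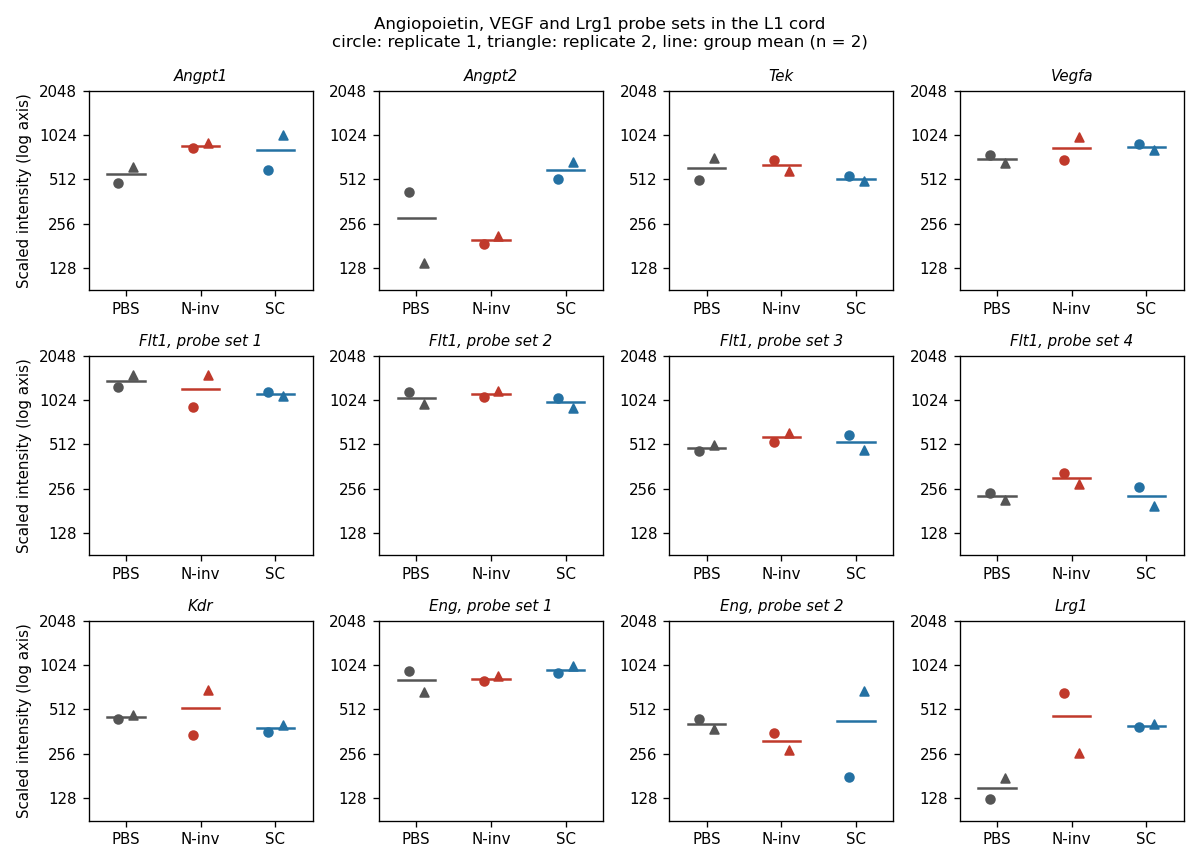
Scaled intensity on a log axis for the 12 member probe sets above the filter, by group; circles are replicate 1, triangles replicate 2 and lines the mean of 2 arrays. Angpt2 lies at 512.4 and 669 in SC and at 187 and 209 in N-inv with PBS spread between 139 and 420.5, while Lrg1 lies above both PBS arrays in all 4 tumour arrays.

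Angpt2 was the ligand with the widest difference between SC and N-inv. Its main probe set, 1448831_at, read 420.5 and 139 on the PBS arrays, 187 and 209 on the N-inv arrays, and 512.4 and 669 on the SC arrays. Both SC arrays were above the other 4, both N-inv arrays were low, and PBS replicate 1 lay near the SC arrays while PBS replicate 2 was the lowest array of all. The log2 difference between SC and PBS was 1.17 ± 0.44 (SE), and between N-inv and SC it was -1.45 ± 0.44, a mean ratio of 0.335; both are descriptions without a test, because Angpt2 was chosen for being high in SC. Leaving out SC replicate 2 left 0.99 and -1.27. The first of these differences turned on the PBS arrays, being 1.89 without PBS replicate 1 and 0.45 without PBS replicate 2. N-inv and PBS overlapped, with a log2 difference of -0.28 ± 0.44 (adjusted p = 1 in limma), which was 0.44 without PBS replicate 1. In order of group means SC (591 ± 111), PBS (279.6 ± 199) and N-inv (198 ± 15.8, SD, n = 2 each) followed each other, and the last pair did not differ beyond its spread. The dim second probe set of Angpt2, 1459636_at, ranged from 6.85 to 57.5 and was highest in N-inv replicate 1.

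Angpt1, the activating ligand of the same receptor, had its highest group mean and its closest pair of arrays in N-inv. Probe set 1439066_at read 482 and 623 (PBS), 831 and 899 (N-inv) and 594 and 1026 (SC). Both N-inv arrays exceeded both PBS arrays, whereas the SC arrays overlapped both groups. The log2 difference between N-inv and PBS was 0.63 ± 0.28 (SE; limma, adjusted p = 1), and between SC and PBS it was 0.49 ± 0.28 (adjusted p = 0.729). SC replicate 2 decided the second value, which was 0.11 without that array. The other Angpt1 probe set ranged from 8.90 to 21.0.

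Vegfa, the gene of VEGF-A, varied 1.49-fold between its lowest and highest array. Its main probe set, 1420909_at, read 745 and 664 (PBS), 690 and 989 (N-inv) and 894 and 806 (SC). Both SC arrays lay above both PBS arrays, and the N-inv arrays overlapped both groups. The differences from PBS were 0.22 ± 0.21 in N-inv and 0.26 ± 0.21 in SC on the log2 scale, with adjusted p of 1 and 0.824. The second Vegfa probe set, 1451959_a_at, ranged from 16.2 to 174 without separating any groups.

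No receptor of the 2 ligand families passed the test in any comparison, and Tie1 was too dim to be tested. Tek, the angiopoietin receptor, read 504 and 716 (PBS), 694 and 579 (N-inv) and 535 and 497 (SC). Both N-inv arrays exceeded both SC arrays, with a log2 difference of 0.28 ± 0.21 (adjusted p = 0.745 in limma), and PBS overlapped both groups. Tie1, an orphan receptor that modulates Tek, was below the filter, at 183 and 97.4 (PBS), 142 and 88.2 (N-inv) and 115.0 and 16.8 (SC); the lowest array was SC replicate 2, the array with Xist. Kdr, the main signalling receptor of VEGF-A, read 442 and 466 (PBS), 343 and 697 (N-inv) and 361 and 400.1 (SC). The N-inv arrays were the lowest and the highest of 6, and both SC arrays lay below both PBS arrays, by a log2 difference of -0.24 ± 0.31 (adjusted p = 0.899 in limma).

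Flt1 was read by 4 probe sets above the filter, which can bind different transcripts of the gene, including those that encode its soluble decoy form. Across the 6 arrays the ratio of the highest to the lowest value was 1.66, 1.30, 1.33 and 1.68 for 1451756_at, 1419300_at, 1440926_at and 1454037_a_at. The dimmest of them, 1454037_a_at, read 238 and 216 (PBS), 326 and 275 (N-inv) and 262 and 194 (SC). N-inv was above both other groups by this probe set, by 0.37 ± 0.20 on the log2 scale against each, with adjusted p of 1 and 0.635. Against SC it was 0.17 without SC replicate 2. The brightest, 1451756_at, pointed the other way for N-inv against PBS (-0.22 ± 0.26, adjusted p = 1), with N-inv arrays at 915 and 1517 and PBS arrays at 1248 and 1513. Without N-inv replicate 1 that value was 0.14. The remaining probe sets, 1419300_at and 1440926_at, were higher in N-inv than in PBS, by 0.10 ± 0.18 and 0.23 ± 0.18. For 1440926_at both N-inv arrays exceeded both PBS arrays. With all arrays, 1451756_at was thus the only Flt1 probe set that was lower in N-inv than in PBS.

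Eng, a co-receptor for TGF-beta family ligands on endothelium, had 2 probe sets above the filter that disagreed. By 1417271_a_at it read 936 and 677 (PBS), 794 and 861 (N-inv) and 907 and 1005 (SC). By 1432176_a_at it read 442 and 375 (PBS), 355 and 273 (N-inv) and 177 and 680.0 (SC). The first probe set put both N-inv arrays below both SC arrays, with a log2 difference of -0.20 ± 0.20 for N-inv minus SC (adjusted p = 0.822 in limma), which was -0.13 without SC replicate 2. In the second the SC arrays stood at both ends of the range, with SC replicate 2 the highest and SC replicate 1 the lowest of 6, so its group mean of 428 ± 356 (SD, n = 2) describes neither array.

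**Figure D2:**
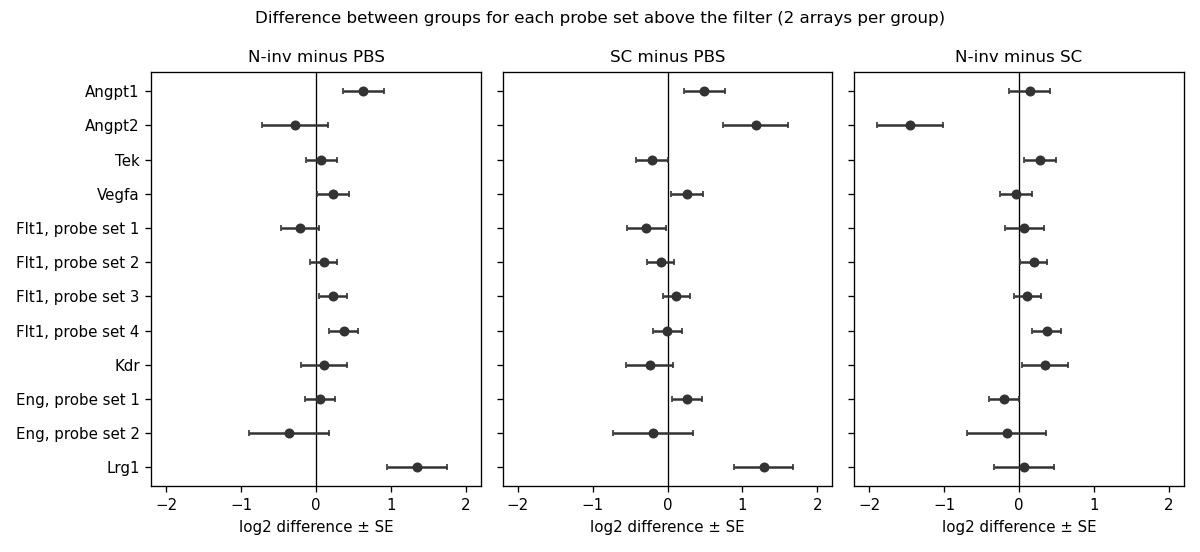
Log2 difference with its standard error for each of the 12 member probe sets in the 3 comparisons, from 1 limma fit with 2 arrays per group; Flt1 and Eng have several probe sets, numbered by brightness. Lrg1 lies near 1.3 against PBS in N-inv and in SC, Angpt2 lies at 1.17 and -1.45 in the comparisons with SC, and the other 10 probe sets lie at most 0.63 from 0.

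Lrg1, which is known as an acute phase protein, a granule protein of neutrophils and a ligand that binds endoglin, was higher in both tumour groups than in PBS. Its probe set, 1417290_at, read 125 and 174 (PBS), 662 and 259 (N-inv) and 389 and 405 (SC). All 4 tumour arrays exceeded both PBS arrays, the highest and lowest of the 4 were the N-inv arrays, and the SC arrays lay close together between them. In SC against PBS the log2 difference was 1.28 ± 0.40 (SE), a mean ratio of 2.65, and it was 1.26 without SC replicate 2; this is a description, since Lrg1 was chosen for it. In N-inv against PBS it was 1.35 ± 0.40, a mean ratio of 3.08, with an unadjusted p of 0.0126 and an adjusted p of 1 in limma, and it was 0.71 without N-inv replicate 1. N-inv and SC overlapped, at 0.07 ± 0.40, a value that was -0.57 without N-inv replicate 1 and 0.70 without N-inv replicate 2. Both comparisons with PBS rest on the same 2 PBS arrays, against which Lrg1 was chosen. The PBS mean of Lrg1, 149.7, lay below the cutoff of 155.5, so Lrg1 passed the filter through the tumour arrays. Nothing is therefore read from its p, and its ratios to PBS start from a dim value. As a description, the Pearson correlation of Angpt2 with Lrg1 across the 6 arrays was 0.09.

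Counted over the 12 probe sets, 9 were higher and 3 lower in N-inv than in PBS, 6 higher and 6 lower in SC than in PBS, and 8 higher and 4 lower in N-inv than in SC. The median log2 differences were 0.105, 0.06 and 0.09, beside medians over all probe sets of 0.02, -0.02 and 0.05. Groups that did not overlap numbered 4 higher and 1 lower in N-inv against PBS, where 21.7% and 14.6% of all probe sets were separated in those directions. They numbered 3 higher and 2 lower in SC against PBS, where the shares were 14.2% and 20.2%. They numbered 3 higher and 2 lower in N-inv against SC, where the shares were 23.7% and 13.3%. In each comparison 5 of the 12 were thus separated one way or the other, beside 36.3%, 34.4% and 36.9% of all probe sets. Angpt2 and Lrg1 are among those counted in the comparisons with SC, so nothing is read from these counts, and the probe sets above the filter are not all members. Both comparisons with PBS share the PBS arrays, so their values are given side by side only.

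Other ligands, receptors and inhibitors of the same families gave 13 genes above the filter of 15 on the array. In SC against PBS 6 were higher and 7 lower with a median of -0.07, and 0 were called in limma, with 1 at an unadjusted p under 0.05. Nrp1, a VEGF and semaphorin co-receptor, read 2836 and 3022 (PBS), 3298 and 3748 (N-inv) and 2196 and 2240 (SC). The SC arrays were the lowest and the N-inv arrays the highest, with log2 differences of -0.40 for SC minus PBS (adjusted p = 0.626) and 0.66 for N-inv minus SC. Its relative Nrp2 measured 1037 and 1721 in SC against 1892 and 1816 in PBS, and the ligand Vegfb 2208 and 2328 against 2580 and 2893. Vegfd, a ligand of the lymphatic receptor Flt4, measured 244 and 182 in SC against 178 and 124 in PBS. Of the 13 genes, 3 were separated upward and 3 downward in SC against PBS, where 14.2% and 20.2% of all probe sets were.

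The kinases and adaptors downstream of Kdr and Tek had medians of 0.11 in N-inv and 0.09 in SC against PBS over 18 genes, with 16 and 12 higher. Without PBS replicate 1 the N-inv median was -0.01, with 9 of 18 higher. In that list Hspb1, a small heat shock protein phosphorylated after VEGF, read 3025 and 3149 (PBS), 4568 and 4947 (N-inv) and 3737 and 4991 (SC). Without SC replicate 2 the SC median was -0.09, with 5 of 18 higher. The endoglin and TGF-beta receptor list had a median of 0.06 in SC against PBS over 22 genes, 12 higher and 10 lower, and of -0.11 without SC replicate 2. Id1, a transcriptional target of endothelial BMP signalling, read 641 and 693 (PBS), 521 and 472 (N-inv) and 292 and 413 (SC). Both SC arrays were below all others, and the adjusted p for SC against PBS was 0.518. Smad7 was also below both PBS arrays in SC, at 1441 and 1544 against 1752 and 2130. Gdf2 and Acvrl1 lay above both PBS arrays in SC. Gdf2 was at 313 and 267 against 98.1 and 226, and Acvrl1 at 254 and 193 against 189 and 173.

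Endothelial identity genes show what the rest of the vessel transcripts measured beside Angpt2. Their median was 0.18 in N-inv against PBS, with 15 of 22 higher and 12 of 22 separated upward, where 55.4% and 21.7% of all probe sets were, and -0.05 in SC against PBS, with 10 higher and 12 lower. Without SC replicate 2 the latter was -0.33, with 7 higher and 15 lower. Their summed intensity was 42232 in SC replicate 1 and 56976 in SC replicate 2, with the other 4 arrays between 51248 and 57285. In SC against PBS 5 of the 22 were separated downward and 3 upward, where 20.2% and 14.2% of all probe sets were. The 4 genes named from this list were taken for the smallest p in that comparison. Of these 4, 3 lay below both PBS arrays in SC. Icam2, an adhesion molecule of endothelium, measured 106 and 111 in SC against 253 and 192 in PBS. Itm2a was at 11982 and 8895 against 14888 and 16051, and Slco1a4, an organic anion transporter of brain endothelium, at 3819 and 4362 against 5117 and 5495. Esam, a junction protein, lay above, at 1224 and 1510 against 987 and 1037. The mural cell list, pericytes and smooth muscle, had a median of 0.02 in SC against PBS over 10 genes and of -0.19 without SC replicate 2. The list of tip cell and angiogenic genes had a median of -0.02 over 18 genes, 8 higher and 10 lower in SC against PBS, and of -0.09 without SC replicate 2. In SC against PBS 5 of these 18 were separated upward and 5 downward, where 14.2% and 20.2% of all probe sets were. The 4 genes named from it were again taken for the smallest p. Among them the guidance receptor Unc5b was at 1754 and 1162 in SC against 2262 and 2253 in PBS. The Notch targets Hes1 and Hey2 were also below both PBS arrays in SC, Hes1 at 448 and 451 against 597 and 574. The matrix protease Mmp14 was above them, at 1041 and 934 against 653 and 681.

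**Figure D3:**
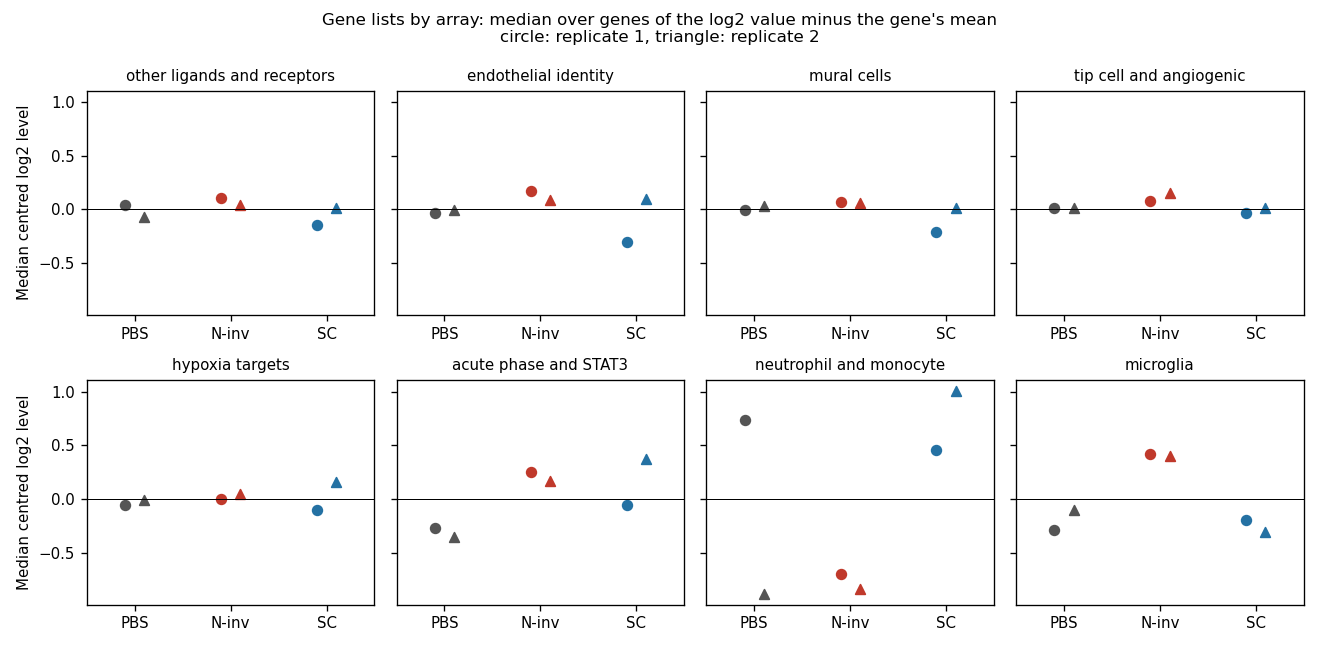
Median over the genes of a list of each gene's log2 value minus its mean over 6 arrays, shown for 8 lists; circles are replicate 1 and triangles replicate 2. The neutrophil and monocyte list is high in PBS replicate 1 (0.74) and in SC (0.46 and 1.01) and low in the other 3 arrays. The acute phase list is lowest in PBS (-0.27 and -0.35). The endothelial and mural lists are lowest in SC replicate 1 (-0.30 and -0.21), and the tip cell list ranges from -0.03 to 0.15.

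The genes whose values were nearest to Angpt2 over the 6 arrays were taken by the smallest root mean square distance of centred log2 values among 12625 other genes. They were Camp, a neutrophil antimicrobial peptide (distance 0.33), Dbh, the enzyme that makes noradrenaline (0.34), Trem3, a receptor of myeloid cells (0.34), Vrk2 (0.40) and Agmo (0.42). Camp read 329 and 88.8 (PBS), 72.1 and 95.1 (N-inv) and 374 and 290.1 (SC). Like Angpt2 it was high in PBS replicate 1 and low in PBS replicate 2. Camp was picked for its nearness to Angpt2 on these same arrays, so this likeness is not a separate observation. Its values of 88.8, 72.1 and 95.1 lay below the cutoff that was applied to mean intensity. The probe set of Dbh is of a kind that can bind other transcripts as well. The neutrophil and monocyte list had 8 of its 17 genes on the array above the filter. Its summed intensity over the 17 was 4991 and 2345 (PBS), 3082 and 3220 (N-inv) and 4715 and 9168 (SC). None of the 17 was listed at 0; the lowest value was 5.62, and Itgam and Padi4 exceeded the cutoff on no array. S100a8, a calcium-binding protein of neutrophils, read 777 and 118 (PBS), 110 and 162 (N-inv) and 653 and 1581 (SC), the same ranking of groups as Angpt2 with PBS replicate 1 again beside the SC arrays. The median of the list was 0.93 for SC minus PBS and 1.87 without PBS replicate 1. The part of these cells in the Angpt2 values was not tested. For markers of other cells, 0 of which were called, the median of 8 microglia genes was 0.65 in N-inv against PBS, with 8 higher, and -0.19 in SC. Without SC replicate 2 the SC value was 0.08. Of the 10 choroid plexus and ependyma genes on the array, 4 passed the filter, and the markers Ttr, Folr1 and Foxj1 were among those that did not. The median of these 4 genes was -0.63 in N-inv against PBS, with 4 lower and 3 at an unadjusted p under 0.05, and 0.16 in SC. Over all probe sets, 55.4% were higher in N-inv than in PBS and 4.03% had an unadjusted p under 0.05. In SC against PBS the median of 12 meningeal fibroblast genes was -0.31, and -0.09 without SC replicate 2. That of 10 astrocyte genes was -0.03 and, without that array, -0.30. That of 2 red blood cell genes was -0.32 and -0.96, and that of 11 spinal cord genes 0.08 and 0.02, with and without that array. The part of these cells in the members' values was not tested.

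**Figure D4:**
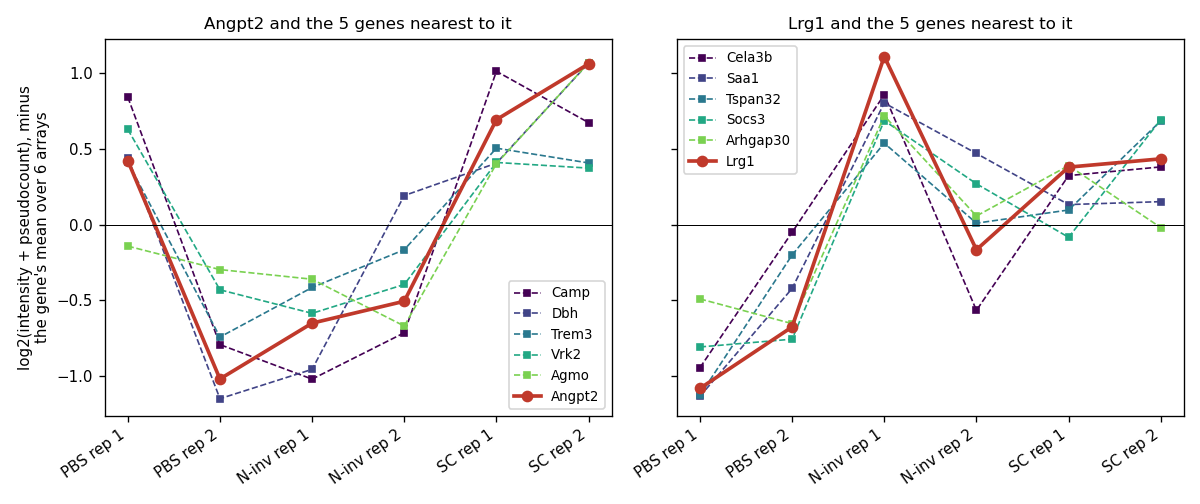
Log2 value minus the gene's mean over the 6 arrays (pseudocount 25.6) for Angpt2 and for Lrg1, each with the 5 genes nearest to it; lines join the values of 1 gene. Angpt2, Camp, Trem3 and Vrk2 are high in PBS replicate 1 and in both SC arrays, and Lrg1 and 4 of its 5 neighbours are lowest in PBS replicate 1, while Arhgap30 is lowest in PBS replicate 2.

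Lrg1 had other neighbours: Cela3b (distance 0.33), Saa1, a serum amyloid of the acute phase (0.34), Tspan32 (0.35), Socs3, the feedback inhibitor of cytokine signalling through STAT3 (0.35), and Arhgap30 (0.36). Socs3 read 335 and 348 (PBS), 988 and 734 (N-inv) and 569 and 993 (SC). Saa1 read 66.1 and 125 (PBS), 325 and 253 (N-inv) and 195 and 198 (SC). All 4 tumour arrays were above both PBS arrays for Socs3 and for Saa1, and both probe sets are of kinds that can bind more than 1 transcript. Both genes were picked for nearness to Lrg1 on these same arrays, so their likeness to it is not a separate observation. The acute phase and STAT3 list, to which these 2 genes belong, had medians of 0.39 in N-inv and 0.47 in SC against PBS over 18 genes, with 16 and 15 higher. Without SC replicate 2 the SC median was 0.27, with 13 higher. In N-inv against PBS 14 of 18 were separated upward, beside 21.7% of all probe sets. In limma 0 were called and 6 had an unadjusted p under 0.05, beside 4.03% of all probe sets. Socs3 and Saa1 are among both the 14 and the 6, so these counts are not separate from the choice by nearness to Lrg1. Lcn2, a secreted protein that binds bacterial iron carriers, read 218 and 135 (PBS), 797 and 855 (N-inv) and 736 and 2530 (SC). The neutrophil list had a median of -0.99 in N-inv against PBS, with 6 of 8 genes lower, and of -0.04 without PBS replicate 1. Of these 8 genes, 2 were separated downward in N-inv, the granule genes Ngp and Ltf, and 2 upward. Of all probe sets 14.6% and 21.7% were separated in those directions. The other genes of the list, S100a8 and Camp among them, overlapped PBS. In both N-inv arrays Ngp and Camp lay below the cutoff that was applied to mean intensity, as did Ltf in N-inv replicate 2. Nothing is read from these counts. Ngp and Ltf were picked here after their values were seen. Lcn2 and Csf3r, which also stand in the neutrophil list, were above PBS in N-inv, Csf3r at 369 and 440.2 against 239 and 193. The part of neutrophils in the Lrg1 values was not tested. The hypoxia list, genes switched on by HIF, had a median of 0.06 in SC and 0.05 in N-inv against PBS over 24 genes, with 14 of 24 higher in each, and of -0.10 in SC without SC replicate 2. Adm, a vasodilator peptide of that list, read 615 and 500.3 (PBS), 414 and 277 (N-inv) and 660 and 921 (SC), and so ranked the groups as Angpt2 did. FOXO targets, among which Angpt2 is known, had a median of 0.07 in SC against PBS over 21 genes and of -0.35 without SC replicate 2.

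Promoter sequences were compared because Socs3 was among the genes picked as nearest to Lrg1. RefSeq promoters of GRCm38.p6, from 250 bases before to 50 after a transcript start, were at hand for 7 of the 9 members (8 promoters, 2 of them of Vegfa) and for 9 of the 10 neighbouring genes. Angpt1 and Angpt2 had no entry, so no count of matches covers them. Capitals mark matches, on either strand, to the STAT letters TTCNNNGAA, the hypoxia response core ACGTG, the FOXO letters GTAAACA, the promoter box TATAAA, the ETS letters CAGGAA or the letters AGATAA read by GATA factors. The Lrg1 promoter lies at chr17:56121897-56122196 and that of Socs3 at chr11:117969317-117969616, both on the minus strand and printed 5′ to 3′ along the gene.
Lrg1: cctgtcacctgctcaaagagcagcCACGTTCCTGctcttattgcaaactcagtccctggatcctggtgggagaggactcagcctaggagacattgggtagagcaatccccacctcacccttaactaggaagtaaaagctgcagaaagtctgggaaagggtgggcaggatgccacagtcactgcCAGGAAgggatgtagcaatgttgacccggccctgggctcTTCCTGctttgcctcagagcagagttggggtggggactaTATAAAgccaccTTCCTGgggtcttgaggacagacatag
Socs3: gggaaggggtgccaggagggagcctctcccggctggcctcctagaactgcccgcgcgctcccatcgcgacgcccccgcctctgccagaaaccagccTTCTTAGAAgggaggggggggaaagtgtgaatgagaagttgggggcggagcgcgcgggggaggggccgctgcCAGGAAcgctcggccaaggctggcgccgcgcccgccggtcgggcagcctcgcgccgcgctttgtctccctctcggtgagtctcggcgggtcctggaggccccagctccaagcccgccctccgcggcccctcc
The Lrg1 promoter held 4 matches to CAGGAA, starting at positions -222, -67, -28 and 24 from the start site, 1 to TATAAA at 12 and 1 to ACGTG at -226, whose last base is shared with the first CAGGAA match. The CAGGAA letters were in 5 of the 8 member promoters, with Eng, Tek and Tie1 among them, and in 30.6% of all promoters in the table. The STAT letters were in 0 of the 8 member promoters, in 2 of the 9 neighbours' promoters (Socs3, at -154, and Agmo) and in 8.3% of all promoters. ACGTG was in 2 of 8 member promoters against 19.6% of all, TATAAA in 2 against 13.6%, AGATAA in 2 against 11.2% and GTAAACA in 0 against 3.65%. These matches describe letters in 300 bases and are not evidence of binding.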

How the data were processed

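Total RNA (100 ng per array) from L1 cord was labelled by 2-cycle labelling for Affymetrix arrays, per the labels' protocols. The deposited values are linear intensities per probe set, with a 2% trimmed mean of 1000 on every array, so they had been scaled before deposit. How probes were summarised is not stated in the labels.

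Control probe sets (64) were dropped. Of the other 45037, the annotation named 1 gene for 34945, several for 932 and none for 9160. Arrays were scaled to the pooled median of 256.2, log2(intensity + 25.6) was taken, and probe sets with a mean above the 40th percentile were tested in limma 3.58.1 (R 4.3.3; lmFit, eBayes, 2-sided, 1 model over 6 arrays, a mean per group, 3 residual and 3.59 prior degrees of freedom, Benjamini-Hochberg). With 2 arrays in each group, exact permutation reaches no p under 0.333 and was not used. The number of arrays limits the precision. A gene in a list is read by its brightest probe set, and each list's named genes are up to 4 with the smallest p in SC against PBS. For Angpt2 and Lrg1 the 5 nearest genes are also named. Csf3r is named by the list rule, and Xist was read as a check of the labels. The scripts were tested on simulated data.

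The members and the 16 lists were chosen with earlier results of these data known, so the lists are described by counts and medians only. Some genes stand in several lists. Alternatives changed the scaling, pseudocount, filter, samples in the fit, replicate block, variance trend and the arrays included.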

Additional observations from a re-analysis of the deposited data

How the results depend on the processing

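In limma, the number of probe sets called in N-inv against PBS was 1 with only the groups compared in the fit and 1 with an intensity trend, and in N-inv against SC it was 2 with an intensity trend. The cause was not tested. Flt1 1454037_a_at in SC against PBS was 0.015 with the values as deposited and 0.0045 after quantile normalization, and Flt1 1451756_at in N-inv against SC was -0.0068 after quantile normalization. The replicate numbers were shared by the groups but did not pair the arrays (correlations of deviations 0.01, 0.04 and -0.03); with a replicate block 0 probe sets were called in each comparison, and 1152, 2098 and 2433 had an unadjusted p under 0.05.

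Leaving out 1 array at a time leaves 1 group with a lone array, which is assumed to vary like the others. The number called then ran from 0 to 1 in N-inv against PBS, from 0 to 10 in SC against PBS (10 without SC replicate 1) and from 0 to 2 in N-inv against SC (2 without SC replicate 1). In N-inv against PBS the log2 differences ran from -0.9999 to 0.44 for Angpt2, -0.17 to 0.31 for Tek, -0.027 to 0.48 for Vegfa, -0.57 to 0.14 for Flt1 1451756_at, -0.028 to 0.24 for Flt1 1419300_at, -0.38 to 0.59 for Kdr and -0.17 to 0.28 for Eng 1417271_a_at. In SC against PBS they ran from 0.45 to 1.89 for Angpt2, -0.45 to 0.030 for Tek, -0.22 to 0.041 for Flt1 1419300_at, -0.037 to 0.27 for Flt1 1440926_at, -0.20 to 0.19 for Flt1 1454037_a_at and -1.10 to 0.70 for Eng 1432176_a_at. In N-inv against SC they ran from -0.24 to 0.52 for Angpt1, -0.29 to 0.21 for Vegfa, -0.29 to 0.43 for Flt1 1451756_at, -0.043 to 0.26 for Flt1 1440926_at, -0.14 to 0.83 for Kdr, -1.07 to 0.73 for Eng 1432176_a_at and -0.57 to 0.70 for Lrg1. List medians without SC replicate 2 or PBS replicate 1 were added after seeing the data. With 2 arrays per group, differences of the size seen in most members could not be told from the spread.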
